A study of Rattus norvegicus with 9 samples.

Results

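The livers of rats that had undergone CLP, with or without a burn, were compared with the livers of rats that had undergone only sham procedures, to describe the response that both CLP groups shared. All 9 arrays of the series entered the comparison. The Sham-CLP group (3 arrays, a sham procedure and then CLP, by the name) and the Burn-CLP group (3 arrays, a burn and CLP) were set together against the Sham-Sham group (3 arrays, 2 sham procedures), and the change was the mean of the log2 levels of the 2 CLP groups minus the Sham-Sham level. The labels give whole rat liver and total RNA. CLP is not spelled out there; it usually means cecal ligation and puncture, in which bowel content leaks into the abdomen and infection follows. Strain, sex, age, burn size and the time of collection are not in the labels, and all 6 CLP livers share the CLP procedure, so burn without CLP is not part of this comparison. Whether the 3 arrays of each group represent 3 animals is not stated, so all p-values describe the spread among these samples alone, and that spread may be technical.

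During systemic infection, macrophages and other cells release IL-6, IL-1 and TNF, and hepatocytes answer with the acute phase response. In that response the liver raises the synthesis of proteins that bind bacterial products, iron and proteases, and lowers the synthesis of others such as albumin. Glucocorticoids from the adrenal gland act together with these cytokines and also drive amino acid breakdown in liver.

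Each array measured 15923 probe sets, of which 57 were controls. The deposited array medians ran from 205.2 in Sham-CLP 2 to 268.4 in Sham-Sham 1, that is from 89.84% to 117.5% of their mean, so the arrays were quantile normalized. Signals under 64.3, the 20th percentile, were set to that floor, and 13535 probe sets with at least 3 arrays above it were tested, for 9339 named genes. Sham-Sham 1 stood apart from the other arrays, with a mean correlation of 0.9072 with them, against 0.9372 to 0.9584 for the rest. The hepatocyte markers bore out the tissue label. All 12 tested of 13 listed were above the floor on all 9 arrays, and their summed signal ran from 226600 to 239500 in Sham-Sham, from 236700 to 247400 in Sham-CLP and from 241700 to 248200 in Burn-CLP. Quantile normalization holds signals at the top ranks nearly constant, so these sums cannot show a change: the pooled median log2 change of the 12 markers was 0.008, but 0.159 with the deposited scaling and 0.291 with a common median. In whole tissue, fewer cells of a type and less RNA per cell cannot be told apart.

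In the mean of the 2 CLP groups, 25 probe sets rose and 23 fell against Sham-Sham (limma, Benjamini-Hochberg adjusted p under 0.05). Of these 48, 8 passed in both arms on their own. The 48 calls were 0.355% of the probe sets tested, with 0.185% called higher and 0.17% called lower. They named 45 genes, and 3 called probe sets had no single gene symbol. At an unadjusted p under 0.05 there were 2491 probe sets, or 18.4%. The 6 CLP arrays did not overlap the 3 Sham-Sham arrays for 1023 probe sets (7.56%), 480 of them higher (3.55%) and 543 lower (4.01%), and 47 of the 48 called ones were among these. The named rises were led by secreted acute phase proteins. Of the 25 rises 16, and of the 23 falls 9, were above the floor on all 9 arrays, and in the other 23 the floor affects the size of the change. Single arrays moved the number of calls. When Sham-Sham 1 was left out, 16 probe sets were called, against 8 when Sham-Sham 2 and 721 when Sham-Sham 3 was left out. Leaving out Sham-CLP 1, 2 or 3 gave 9, 17 or 19 calls, and leaving out Burn-CLP 1, 2 or 3 gave 19, 19 or 48. None of the 45 named genes changed direction in any of the alternative settings in which it was tested, but only Lcn2, A2m, Pla2g2a and Got1 kept the call in all 20 of them. Of the named genes still tested, 13 of 42 kept the call without Sham-Sham 1, 6 of 42 without Sham-Sham 2 and 42 of 42 without Sham-Sham 3, and between 9 and 28 of 45 did so without 1 of the CLP arrays.

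**Figure D1:**
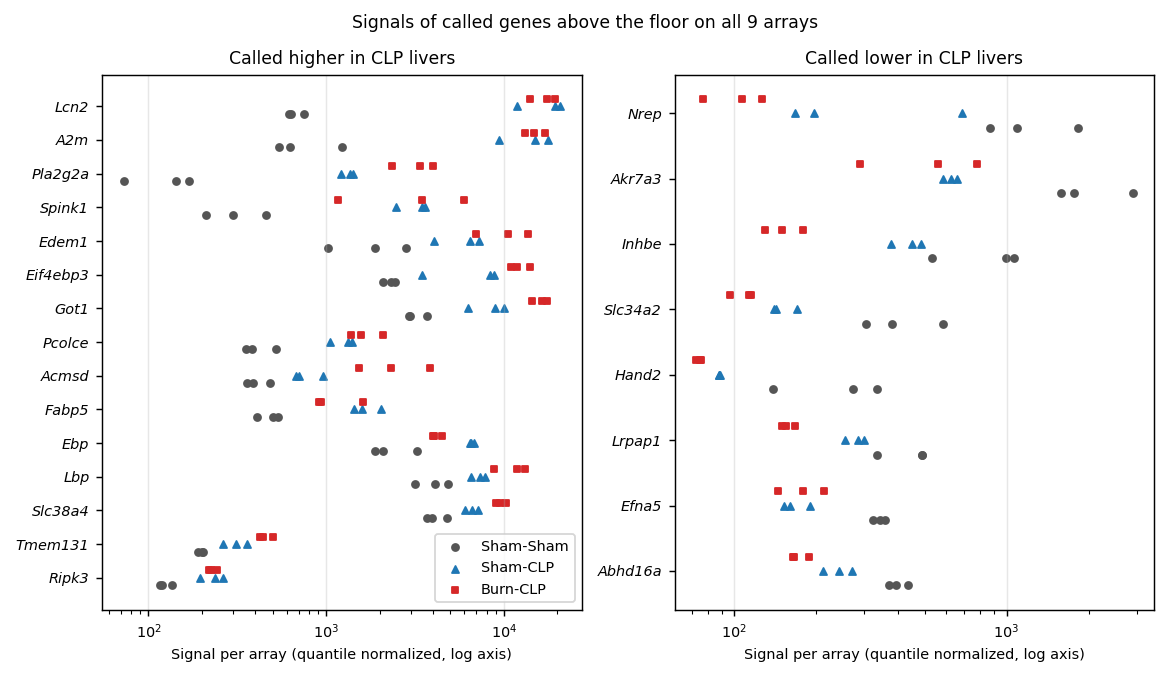
Quantile normalized signal per array, on a log axis, of the called genes with 1 symbol that were above the floor on all 9 arrays; grey circles are Sham-Sham, blue triangles Sham-CLP and red squares Burn-CLP arrays. In every gene drawn the 6 CLP arrays lie on one side of the 3 Sham-Sham arrays, with a wide gap for Lcn2, from 752 on the highest Sham-Sham array to 11853 on the lowest CLP array, and a narrow one for Inhbe, from 532 to 486.

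Secreted acute phase proteins showed the largest rises. Lcn2 encodes lipocalin 2, which withholds iron from bacteria by binding their siderophores. It read 618, 637 and 752 in Sham-Sham, 19319, 20703 and 11853 in Sham-CLP, and 14048, 17438 and 19319 in Burn-CLP. No CLP array came near a Sham-Sham array, and the 2 CLP groups overlapped each other. The change in log2 signal was 4.66 ± 0.21 (SE), a 25.2-fold rise (limma, adjusted p = 1.77e-05), made up of 4.66 in Sham-CLP and 4.65 in Burn-CLP.

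A2m, alpha-2-macroglobulin, is a broad protease inhibitor and a classic acute phase protein of the rat. Its signals were 629, 1222 and 544 in Sham-Sham, 14961, 17662 and 9377 in Sham-CLP, and 13144, 16959.6 and 14817 in Burn-CLP. The 2 CLP groups overlapped here too, and the rise was 19-fold (log2 4.25 ± 0.29, limma adjusted p = 0.000283). Pla2g2a, the secreted group IIA phospholipase A2, breaks down bacterial membranes. It read 142, 72.7 and 168 in Sham-Sham, 1216, 1362 and 1422 in Sham-CLP, and 2355, 3352 and 3968 in Burn-CLP. Every Burn-CLP array was above every Sham-CLP array. The rise was 17-fold (log2 4.09 ± 0.27, limma adjusted p = 0.000283), with log2 changes of 3.47 ± 0.32 and 4.71 ± 0.32 in the 2 arms. The difference between the arms had an unadjusted p of 0.00296 and did not pass after adjustment (limma, adjusted p = 0.345).

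Spink1 and Lbp were the other acute phase genes that passed the test. Spink1 encodes a secreted trypsin inhibitor, best known from the pancreas, that liver makes in the acute phase. It read 460.4, 211 and 297 in Sham-Sham, 3619, 3463 and 2481 in Sham-CLP, and 1159, 5986 and 3458 in Burn-CLP. The Burn-CLP arrays spread widely around the Sham-CLP ones, and all 6 were above Sham-Sham, by 9.82-fold (log2 3.30 ± 0.46, limma adjusted p = 0.0305). Its other probe sets changed by 2.56 and 0.89 on the log2 scale and did not pass (limma, adjusted p = 0.0529 and 0.0773), although the groups did not overlap on either. Lbp encodes the lipopolysaccharide binding protein, which hands bacterial endotoxin to CD14. Its signals ran from 3182 to 4866 in Sham-Sham, from 6559 to 7804 in Sham-CLP and from 8847 to 13098 in Burn-CLP, a 2.24-fold rise (log2 1.17 ± 0.19, limma adjusted p = 0.0406). The Spink1 call was kept in 13 of 20 alternative settings and the Lbp call in 8 of 20. Both were lost, among others, without Sham-Sham 1, Sham-Sham 2 or any single Sham-CLP array, with adjusted p-values of up to 0.0968 and 0.136.

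Of the 27 positive acute phase genes tested, 5 rose (Lcn2, A2m, Pla2g2a, Spink1, Lbp) and none fell, against 39 calls (0.418%), 24 rises (0.257%) and 15 falls (0.161%), among all 9339 genes. The CLP arrays lay wholly above Sham-Sham for 8 of the 27, the other 3 being Orm1, Hpx and Timp1, which did not pass and lie outside the naming rule. Among all genes 741 (7.93%) had separate groups, and 354 (3.79%) lay wholly above. The median log2 change of the list was 0.172, with 24 of 27 values above 0, against a median of -0.003 over all genes. It was 0.287 under the deposited scaling and 0.419 under a common median. The lower and upper quartiles of the list were 0.061 and 0.64, so most members changed far less than the 3 leading ones. For the negative acute phase list, with 17 genes tested, the median was -0.083 and no gene was called. That median turned positive under the deposited scaling (0.045) and under a common median (0.177), so it has no settled direction. Apoa4, an apolipoprotein, had the CLP arrays wholly below Sham-Sham without passing (log2 -0.59 ± 0.18, limma adjusted p = 0.164). Alb, albumin, held the top ranks on the arrays, where quantile normalization sets the signal, so its change could not be measured in this setting.

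The promoters of 4 called genes are shown. Lcn2 and Pla2g2a hold 2 of the 3 largest rises, and Pcolce kept its call in 19 of 20 alternative settings. Akr7a3, an aldehyde reductase, is the only called gene in the list of conjugation enzymes. Each promoter runs from 250 bases before to 50 bases after the annotated start, 5′ to 3′ on the gene's strand, from RefSeq on build GRCr8. Capitals mark matches, on either strand, to the letters TTCNNNGAA (a STAT factor motif), TTGCNNAA (a C/EBP motif) or GGGA and TTCC with any 2 bases between them (an NF-kB motif), families of factors that act downstream of IL-6 and IL-1. They lie at chr3:36081731-36082030 (minus strand) for Lcn2, chr5:156359475-156359774 (plus) for Pla2g2a, chr12:24720722-24721021 (plus) for Pcolce and chr5:156876471-156876770 (plus) for Akr7a3.
Lcn2: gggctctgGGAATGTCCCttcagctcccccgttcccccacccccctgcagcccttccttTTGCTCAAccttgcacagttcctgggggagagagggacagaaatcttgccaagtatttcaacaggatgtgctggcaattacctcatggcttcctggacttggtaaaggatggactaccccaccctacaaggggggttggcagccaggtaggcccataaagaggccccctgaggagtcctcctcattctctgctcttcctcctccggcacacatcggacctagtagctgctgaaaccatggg
Pla2g2a: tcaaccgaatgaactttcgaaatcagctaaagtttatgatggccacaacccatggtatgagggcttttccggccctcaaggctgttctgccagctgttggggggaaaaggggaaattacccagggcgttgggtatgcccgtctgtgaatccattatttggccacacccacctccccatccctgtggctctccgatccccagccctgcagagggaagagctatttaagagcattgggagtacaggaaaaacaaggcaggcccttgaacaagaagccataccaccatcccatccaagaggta
Pcolce: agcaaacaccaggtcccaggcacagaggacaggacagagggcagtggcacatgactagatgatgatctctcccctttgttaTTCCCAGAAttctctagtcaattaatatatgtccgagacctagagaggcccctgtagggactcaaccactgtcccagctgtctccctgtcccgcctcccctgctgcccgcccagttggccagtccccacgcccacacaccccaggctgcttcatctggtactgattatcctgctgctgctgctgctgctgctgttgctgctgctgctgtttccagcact
Akr7a3: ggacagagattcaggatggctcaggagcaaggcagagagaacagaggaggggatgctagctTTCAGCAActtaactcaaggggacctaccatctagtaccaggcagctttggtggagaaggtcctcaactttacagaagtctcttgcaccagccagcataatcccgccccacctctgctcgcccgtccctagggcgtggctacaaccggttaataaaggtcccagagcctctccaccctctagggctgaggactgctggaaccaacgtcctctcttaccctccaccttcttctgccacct

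The Lcn2 window holds an NF-kB match whose first base is at -242 and a C/EBP match at -191 from the start, the Pcolce window a STAT match at -169, and the Akr7a3 window a C/EBP match at -189. The Pla2g2a window holds none of the 3 letter strings. Of the 15 largest rises and 15 largest falls among the called genes with separate groups, 26 genes had a promoter entry. The STAT letters were in 2 of these (Pcolce and Mid1), against 8.87% of all 33469 promoters of that length. The C/EBP letters were in 5 (Lcn2, Akr7a3, Slc34a2, Nkx2-1, Utrn), against 10.6%, and the NF-kB letters in 1 (Lcn2), against 1.3%. A match, or its absence, describes only the letters in this window.

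S100a9, a calcium binding protein abundant in neutrophils, was the only called gene of the neutrophil list. It read 64.3, 64.3 and 89.2 in Sham-Sham, with 2 of these at the floor, then 166, 203 and 252 in Sham-CLP and 238, 788 and 662 in Burn-CLP. Burn-CLP 2 and 3 were the highest and Burn-CLP 1 lay within the Sham-CLP range. S100a9 passed the filter through its CLP arrays, which limits its p-value as support. The change in log2 was 2.15 ± 0.35 (limma, adjusted p = 0.0406), which understates it because of the floor, and the call was kept in 7 of 19 alternative settings. Leaving out Sham-Sham 1, Sham-Sham 2, any Sham-CLP array, Burn-CLP 2 or Burn-CLP 3 ended it, with adjusted p-values of up to 0.15. The other neutrophil markers named did not pass and lay on both sides of 0. The log2 changes were 0.69 ± 0.36 for S100a8, its partner protein, 0.36 ± 0.23 for Cybb, an oxidase subunit, -0.46 ± 0.25 for the collagenase Mmp8, -0.24 ± 0.26 for the oxidase subunit Ncf1 and -0.10 ± 0.27 for the chemokine receptor Cxcr2. Of the 7 tested markers 4 had values above 0, and the list median of 0.315 was -0.104 when all 9 arrays had to be above the floor. The summed signal of the 7 tested of 18 listed neutrophil markers lay between 830.7 and 1072 on the Sham-Sham arrays, between 838.6 and 1147 on the Sham-CLP arrays and between 1072 and 2113 on the Burn-CLP arrays, and 4 of the 7 (S100a8, S100a9, Mmp8, Alox5ap) were at the floor on some array. The part of neutrophil number in the S100a9 rise was not tested.

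Genes of amino acid handling formed another group of rises. Got1, the cytosolic aspartate aminotransferase, moves amino groups between aspartate and glutamate. It read 2963, 3702 and 2936 in Sham-Sham, 8883, 10029 and 6277 in Sham-CLP and 16399.9, 17576 and 14331 in Burn-CLP. The 3 groups did not overlap one another, and Got1 rose 3.61-fold (log2 1.85 ± 0.18, limma adjusted p = 0.00458). Acmsd encodes the enzyme that diverts tryptophan breakdown away from NAD synthesis. Its signals were 359, 481 and 387 in Sham-Sham, 681, 702 and 965 in Sham-CLP and 2324, 3840.2 and 1534 in Burn-CLP. These groups did not overlap either, and the rise was 3.35-fold (log2 1.74 ± 0.27, limma adjusted p = 0.0397), with 0.93 ± 0.31 in Sham-CLP and 2.56 ± 0.31 in Burn-CLP. The Acmsd arms differed at an unadjusted p of 0.000458 that did not pass after adjustment (limma, adjusted p = 0.205). The Acmsd call itself was kept in 10 of 20 alternative settings and lost without Sham-Sham 1, Sham-Sham 2, any Sham-CLP array or Burn-CLP 1, with adjusted p-values of up to 0.157.

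Of 16 amino acid transporters tested, 2 rose and none fell, against 0.257% and 0.161% of all genes. The CLP arrays lay wholly above Sham-Sham for 3 and wholly below for 1, against 3.79% and 4.14% of all genes. In this list 9 values were above 0 and 7 below. The median log2 change was 0.116, or 0.281 under a common median. Slc16a10, a carrier of aromatic amino acids, read 78.2, 64.3 and 114 in Sham-Sham, with Sham-Sham 2 at the floor, 321, 379.7 and 296 in Sham-CLP and 418, 1066 and 564 in Burn-CLP. All Burn-CLP arrays were above all Sham-CLP arrays, and the log2 change was 2.46 ± 0.29 (limma, adjusted p = 0.0129). Slc38a4, a carrier of small neutral and cationic amino acids, ran from 3696 to 4769 in Sham-Sham, from 6064 to 7170.3 in Sham-CLP and from 9088 to 10244 in Burn-CLP, a 1.93-fold rise (log2 0.95 ± 0.14, limma adjusted p = 0.0358). These calls were kept in 15 of 19 and in 9 of 20 alternative settings. Leaving out Sham-Sham 1, Sham-Sham 2 or Sham-CLP 1 ended the Slc16a10 call, with adjusted p-values of up to 0.0733. Slc38a4 was lost when any array but Sham-Sham 3 was left out, with values of up to 0.113. Slc3a1, the heavy chain of a cystine transporter, had the CLP arrays wholly below Sham-Sham without passing (log2 -0.74 ± 0.20, limma adjusted p = 0.139). Slc1a2, a glutamate transporter, had a log2 change of 2.02 ± 0.38 without passing (limma, adjusted p = 0.0686), and Sham-Sham 3, at 195, lay above Sham-CLP 3, at 176.

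Among the 42 tested genes of amino acid breakdown and the urea cycle, 2 rose (Got1 and Acmsd) and none fell, against 0.257% of all genes that rose. The CLP arrays lay wholly above Sham-Sham for 6 and wholly below for 1, against 3.79% and 4.14% of all genes. The count wholly above was 13 under the deposited scaling, where 310 of 9331 genes lay wholly above, and 17 under a common median, where 495 of 9342 did. The list's median log2 change was 0.232, with 31 of 42 values above 0, and stayed positive under both other scalings (0.344 and 0.476). It fell to 0.126 without Sham-Sham 3. Tdo2, the first enzyme of tryptophan breakdown, read 10922, 12511 and 8687 in Sham-Sham, 16888, 16603 and 15201 in Sham-CLP and 19058, 19460.1 and 18017 in Burn-CLP. The groups were separate, but the change of 0.72 ± 0.15 in log2 did not pass (limma, adjusted p = 0.098). Sds, serine dehydratase, had a log2 change of 1.88 ± 0.41 that did not pass either (limma, adjusted p = 0.098), and its arms were 0.97 and 2.78.

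Known glucocorticoid target genes of liver had one of the larger list medians, 0.6 in log2, with 23 of 27 values above 0. In this list 2 rose (Lcn2 and Got1) and none fell, against 0.257% of all genes that rose. The CLP arrays lay wholly above Sham-Sham for 5 of the 27, against 3.79% of all genes. The list median was 0.378 in Sham-CLP and 0.831 in Burn-CLP, and over the pooled arrays it ran from 0.481 to 0.757 across the alternative settings. The 6 CLP arrays did not all lie clear of the controls on this measure: the list's median deviation from the Sham-Sham mean was 0.185 in Sham-CLP 3 and 0.268 in Sham-Sham 2. Lcn2, Tdo2 and Sds, named above, are members of this list as well as of others, so the lists are not independent.

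**Figure D2:**
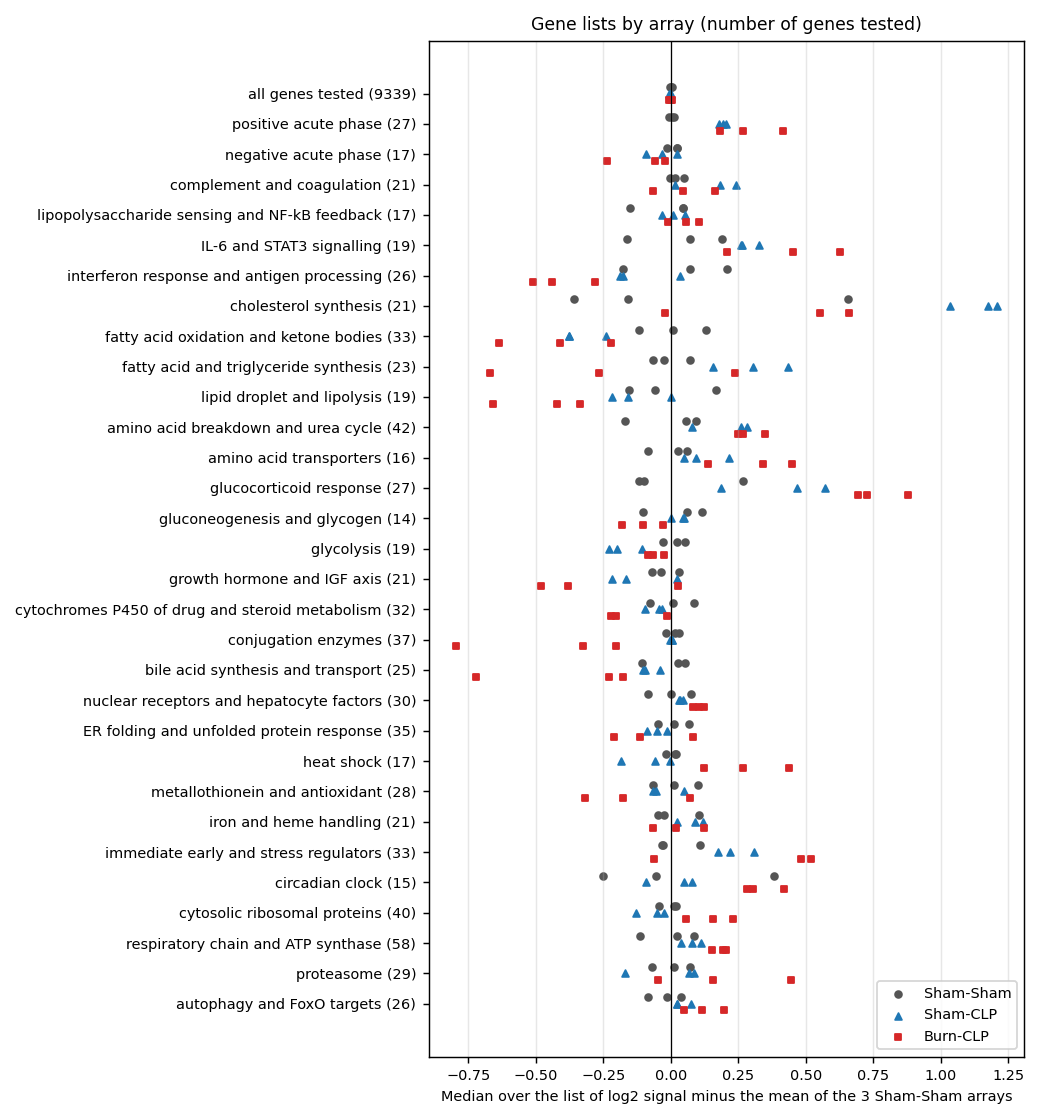
Median over each gene list, per array, of the log2 signal minus the mean of the 3 Sham-Sham arrays, with the number of genes tested in brackets; grey circles are Sham-Sham, blue triangles Sham-CLP and red squares Burn-CLP arrays. All 6 CLP arrays lie above the 3 Sham-Sham arrays for the positive acute phase list, from 0.18 to 0.415, and below them for fatty acid oxidation, from -0.635 to -0.222, while all genes stay near 0.

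Genes of protein quality control and translation moved in both directions. Edem1, a lectin that sends misfolded glycoproteins from the endoplasmic reticulum to degradation, read 2812, 1875 and 1026 in Sham-Sham, 6427, 7206 and 4066 in Sham-CLP and 10505, 13637 and 6934 in Burn-CLP. Sham-Sham 1 was the highest control and still lay below all CLP arrays. Edem1 rose 4.31-fold (log2 2.11 ± 0.34, limma adjusted p = 0.0406). Eif4ebp3, a repressor of cap-dependent translation, read 2089, 2319 and 2425 in Sham-Sham, 8347, 8760.0 and 3450.0 in Sham-CLP and 13967, 11911 and 10961 in Burn-CLP. Sham-CLP 3 was the lowest of the CLP arrays, and the rise was 3.86-fold (log2 1.95 ± 0.28, limma adjusted p = 0.0311). Each call was kept in 11 of 20 alternative settings. Leaving out any of Sham-Sham 2, the first 2 Sham-CLP arrays and the first 2 Burn-CLP arrays ended both calls, Sham-CLP 3 also that of Edem1 and Sham-Sham 1 also that of Eif4ebp3, with adjusted p-values of up to 0.125 and 0.106.

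Of the 35 genes tested for folding in the endoplasmic reticulum and the unfolded protein response, Edem1 was the only call. The CLP arrays lay wholly above Sham-Sham for 4 genes and wholly below for 3, against 3.79% and 4.14% of all genes. The median log2 change was -0.096, or 0.062 under a common median. Retreg1, a receptor for autophagy of the endoplasmic reticulum, had a log2 change of 2.29 ± 0.44 (limma, adjusted p = 0.0773). Hyou1, a chaperone of that compartment, had one of -0.68 ± 0.15 (limma, adjusted p = 0.099), and Creld2, induced by stress there, one of -0.79 ± 0.20 (limma, adjusted p = 0.119). These 3 did not pass, and for each the 6 CLP arrays did not overlap Sham-Sham.

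In lipid metabolism, a sterol enzyme and a fatty acid binding protein rose and a lipase fell. Ebp, the sterol isomerase late in cholesterol synthesis, read 1872, 2099.5 and 3236 in Sham-Sham, 6504, 6427 and 6784 in Sham-CLP and 4035, 4014 and 4487 in Burn-CLP. The Sham-CLP arrays were the highest, and the pooled rise was 2.24-fold (log2 1.17 ± 0.18, limma adjusted p = 0.0406). Fabp5, a fatty acid binding protein, read 502, 408 and 538 in Sham-Sham, 1439, 1586 and 2030.3 in Sham-CLP and 906, 1607 and 939.5 in Burn-CLP, and rose 2.84-fold (log2 1.5 ± 0.22, limma adjusted p = 0.0314). The Ebp call was kept in 8 of 20 and the Fabp5 call in 10 of 20 alternative settings. Ebp was lost when any array but Sham-Sham 3 was left out, and Fabp5 without any of Sham-Sham 1, Sham-Sham 2, the Sham-CLP arrays or Burn-CLP 1, with adjusted p-values of up to 0.132 and 0.108.

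Mgll, monoacylglycerol lipase, completes triglyceride breakdown. On the called probe set it read 473, 261 and 411 in Sham-Sham, 158, 64.3 and 179 in Sham-CLP and 64.3 on all 3 Burn-CLP arrays, where 64.3 is the floor. All CLP arrays were below all Sham-Sham arrays, and the log2 change was -2.06 ± 0.32 (limma, adjusted p = 0.0397). The other 3 Mgll probe sets changed by -0.89, 0.19 and -0.12 in log2 and did not pass, so the probe sets of this gene disagree. The call was kept in 9 of 19 alternative settings and was lost when Sham-Sham 1 or 2, Sham-CLP 1 or 3 or any Burn-CLP array was left out, with adjusted p-values of up to 0.141.

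Of the 21 cholesterol synthesis genes tested, Ebp was the only call and 18 had values above 0, with a median log2 change of 0.836. The median was 1.146 in Sham-CLP and 0.422 in Burn-CLP. The value depended on the Sham-Sham arrays: Sham-Sham 3 stood 0.656 above the Sham-Sham mean on its median, at the level of Burn-CLP 3 (0.661), and the pooled median was 0.395 without Sham-Sham 2 and 1.26 without Sham-Sham 3. The CLP arrays lay wholly above Sham-Sham for 2 genes, Ebp and Insig1, against 354 of all 9339 genes. Without Sham-Sham 3 they did so for 9, against 977 of all 9281 genes. Insig1, which holds back sterol synthesis, had a log2 change of 1.18 ± 0.27 (limma, adjusted p = 0.104). Lss, lanosterol synthase, had one of 1.51 ± 0.35 (limma, adjusted p = 0.111) and Hsd17b7, a later enzyme of the pathway, one of 1.23 ± 0.34 (limma, adjusted p = 0.139), and in both the groups overlapped.

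Many genes of fatty acid oxidation read lower in the CLP livers, but none passed the test. No gene of the 33 tested was called, and for 14 the CLP arrays lay wholly below Sham-Sham and for none wholly above, against 387 of 9339 genes (4.14%) below. The median log2 change was -0.44, with 28 of 33 values below 0. The count fell to 7 under the deposited scaling and 2 under a common median, with medians of -0.316 and -0.184, and was 22 without Sham-Sham 1. Over all genes the count wholly below was 392 of 9331, 219 of 9342 and 630 of 9252 in these settings. Crat, carnitine acetyltransferase, read 817, 928 and 722 in Sham-Sham, 507, 511 and 632 in Sham-CLP and 524, 447 and 417 in Burn-CLP (log2 -0.71 ± 0.16, limma adjusted p = 0.101). Eci1, an isomerase for unsaturated fatty acids, had a change of -0.96 ± 0.23 (limma, adjusted p = 0.112) and Etfdh, which passes electrons from oxidation to the respiratory chain, one of -0.57 ± 0.14 (limma, adjusted p = 0.119). Acot2, a mitochondrial acyl-CoA thioesterase, changed by -1.43 ± 0.35 with 1 CLP array at the floor (limma, adjusted p = 0.118).

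Of the 19 genes of lipid droplets and lipolysis tested, Fabp5 was called and the median was -0.345. In this list 1 gene lay wholly above and 4 wholly below Sham-Sham, against 3.79% and 4.14% of all genes. Plin2, which coats lipid droplets, read 4965, 6812 and 5073 in Sham-Sham, 2257, 2179 and 3311 in Sham-CLP and 1458, 565 and 1589.9 in Burn-CLP. The 3 groups did not overlap, and its change of -1.74 ± 0.32 did not pass (limma, adjusted p = 0.0683). Lipc, hepatic lipase, changed by -1.15 ± 0.23 (limma, adjusted p = 0.0829) and Fabp3, another fatty acid binding protein, by -1.91 ± 0.33 with 5 CLP arrays at the floor (limma, adjusted p = 0.0552). Lpin1, a phosphatidate phosphatase of triglyceride synthesis, came close to the threshold without passing. It read 949, 865 and 905 in Sham-Sham, 2667, 2253 and 1200.4 in Sham-CLP and 6147, 8536 and 3395 in Burn-CLP, a change of 1.86 ± 0.32 (limma, adjusted p = 0.051). Its list, fatty acid and triglyceride synthesis, had a median of 0.014, with 0.201 in Sham-CLP and -0.16 in Burn-CLP, and no settled direction, as it was -0.127 without Sham-Sham 3 and 0.11 under a common median.

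A detoxifying reductase and an activin subunit were 2 further falls. Akr7a3, an aldehyde reductase that detoxifies aflatoxin aldehydes, read 1585, 1769 and 2899.8 in Sham-Sham, 656, 584 and 628 in Sham-CLP and 780.2, 289 and 558 in Burn-CLP. The Burn-CLP arrays lay on both sides of the Sham-CLP ones, all below Sham-Sham, and Akr7a3 fell 3.6-fold (log2 -1.85 ± 0.31, limma adjusted p = 0.0419). Inhbe, the activin E subunit, a hormone precursor made mainly by liver, read 1062, 997 and 532 in Sham-Sham, 486, 378 and 449.8 in Sham-CLP and 150.4, 129.8 and 179 in Burn-CLP. Its 3 groups did not overlap, although Sham-Sham 3 was close to Sham-CLP 1, and it fell 3.21-fold (log2 -1.68 ± 0.24, limma adjusted p = 0.0311). The log2 change of Inhbe was -0.92 ± 0.27 in Sham-CLP and -2.45 ± 0.27 in Burn-CLP, a difference with an unadjusted p of 0.000271 that did not pass after adjustment (limma, adjusted p = 0.178). The Akr7a3 call was kept in 9 of 20 and the Inhbe call in 10 of 20 alternative settings. Both were lost without Sham-Sham 1, Sham-Sham 2, any Sham-CLP array or Burn-CLP 2, Akr7a3 also without Burn-CLP 3 and Inhbe also without Burn-CLP 1, with adjusted p-values of up to 0.124 and 0.152.

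Of 37 genes tested in the list of conjugation enzymes, the only call was Akr7a3, itself a reductase, against 0.418% of all genes called. In this list 5 genes lay wholly below and 1 wholly above Sham-Sham, against 4.14% and 3.79% of all genes. The count below was 3 under the deposited scaling and 2 under a common median, where 392 of 9331 and 219 of 9342 genes lay wholly below. The median log2 change was -0.256, or -0.035 under a common median, with -0.017 in Sham-CLP and -0.503 in Burn-CLP. Gstm2 and Gstm1, glutathione transferases, changed by -1.01 ± 0.19 and -0.76 ± 0.15 in log2 without passing (limma, adjusted p = 0.0683 and 0.0869), and near-identical family members may share their probes. Cytochromes P450, with 32 tested, had no call and a median of -0.056, or 0.121 under a common median. Cyp2c11, a male-pattern P450 of rat liver under growth hormone control, read 14641, 5874 and 13050.5 in Sham-Sham, 4857, 5364 and 2957 in Sham-CLP and 811, 367 and 2990.2 in Burn-CLP. Sham-Sham 2 was close to Sham-CLP 2, and the change of -2.36 ± 0.58 did not pass (limma, adjusted p = 0.119). Cyp3a9, another P450 of the list, went the other way with overlapping groups, by 1.88 ± 0.48, and did not pass either (limma, adjusted p = 0.122). Among 21 genes listed for the growth hormone and IGF axis the only call was Inhbe, an activin subunit, and no other member passed. The list median was -0.265, ranging from -0.406 with array weights to -0.152 without Sham-CLP 2. Igfals, which carries IGF-1 in blood, had log2 changes of -0.69 ± 0.62 in Sham-CLP and -3.71 ± 0.62 in Burn-CLP, with 2 Burn-CLP arrays at the floor, and a pooled change of -2.20 ± 0.54 (limma, adjusted p = 0.118).

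Other rises came from genes of no shared pathway. Pcolce, a secreted enhancer of procollagen processing, read 355, 383 and 519 in Sham-Sham, 1405, 1057 and 1319 in Sham-CLP and 1385, 1569.7 and 2083 in Burn-CLP. It rose 3.48-fold (log2 1.80 ± 0.19, limma adjusted p = 0.00743) and lost its call only without Sham-Sham 2, at an adjusted p of 0.0533. Pcolce was also the only call among 14 tested stellate cell and fibroblast markers, whose summed signal lay between 9123 and 9877 on the Sham-Sham, 7788 and 10340 on the Sham-CLP and 8008 and 10720 on the Burn-CLP arrays. Acta2 and Col1a2, a contractile and a collagen gene of such cells, had CLP arrays wholly below Sham-Sham (log2 -0.60 ± 0.18 and -0.56 ± 0.21, limma adjusted p = 0.162 and 0.212). Dcn, the matrix protein decorin, went the other way, with a pooled change of 0.78 ± 0.19 that did not pass (limma, adjusted p = 0.113) and arm values of 0.08 ± 0.21 in Sham-CLP and 1.48 ± 0.21 in Burn-CLP. Ripk3, the kinase of necroptosis, read between 117 and 135 on the Sham-Sham, 195 and 263 on the Sham-CLP and 218 and 244 on the Burn-CLP arrays, and rose 1.86-fold (log2 0.89 ± 0.15, limma adjusted p = 0.0419). That call was kept in 7 of 20 alternative settings and lost, among others, with the deposited scaling and when any array but Sham-Sham 3 was left out, with adjusted p-values of up to 0.144.

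Several rises started from the floor. Mid1, a ubiquitin ligase bound to microtubules, was at the floor on all 3 Sham-Sham arrays and read 166, 157 and 143 in Sham-CLP and 181, 209 and 241 in Burn-CLP, at least 2.8-fold higher (limma, adjusted p = 0.00442). Ntf3, the nerve growth factor relative neurotrophin 3, was also at the floor in Sham-Sham and read 229, 220.3 and 218 in Sham-CLP and 136, 105 and 142 in Burn-CLP, at least 2.61-fold higher (limma, adjusted p = 0.00629). Every Sham-CLP array was above every Burn-CLP array for Ntf3. Mid1 and Ntf3 passed the filter through their CLP arrays alone, and values set to the floor show no spread. Their p-values therefore cannot serve as support for a rise. Smpdl3b, a membrane phosphodiesterase related to acid sphingomyelinase, read 64.3 to 66.5 in Sham-Sham and 156 to 172 on all 6 CLP arrays, a narrow range. It rose by 1.32 ± 0.13 in log2 (limma, adjusted p = 0.00442). With 2 Sham-Sham arrays at the floor, Smpdl3b also passed the filter through its CLP arrays, so this p-value cannot serve as support either. Gnat1, the transducin of rod photoreceptors, Clybl, a mitochondrial lyase, and Itgb1bp2, a muscle protein, rose by 1.65 ± 0.24, 1.39 ± 0.20 and 1.01 ± 0.16, each with 1 or 2 Sham-Sham arrays at the floor. Tmem131, a membrane protein of collagen secretion, rose by 0.92 ± 0.15 and was above the floor on all arrays. The calls of Mid1 and Smpdl3b were kept in 18 of 19 alternative settings and that of Ntf3 in 16 of 19. All 3 were lost with the floor at the 30th percentile, and their log2 changes fell as low as 0.69, 0.54 and 0.6 over the settings. Ntf3 was also lost without Sham-Sham 2 and with the 6 CLP arrays as 1 group. Repeats on the same floored values add no support for these 3 calls. Those of Gnat1, Clybl, Itgb1bp2 and Tmem131 were kept in 9, 8, 5 of 19 and 7 of 20, and each was lost on leaving out Burn-CLP 1, either of the arrays Sham-Sham 1 and 2, or either of Sham-CLP 1 and 3, among others, with adjusted p-values of up to 0.357.

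The largest fall was that of Nrep, a small protein first described in regenerating nerve. It read 1826, 1094 and 867 in Sham-Sham, 196, 167 and 687 in Sham-CLP and 76.8, 107 and 126 in Burn-CLP. Sham-CLP 3 lay near the lowest Sham-Sham array while the other 5 CLP arrays were far lower. Nrep fell 7.11-fold (log2 -2.83 ± 0.44, limma adjusted p = 0.0385). Its call was kept in 9 of 20 alternative settings and lost when any array but Sham-Sham 3 or Sham-CLP 3 was left out, with adjusted p-values of up to 0.137.

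Foxo4, Hand2, Mxi1 and Nkx2-1, which encode transcription factors, were among the named falls. Transcription factors as a class were not counted over all genes tested. Foxo4, a forkhead factor held back by insulin signalling, read 428, 289 and 255 in Sham-Sham, 73.2, 69.6 and 101 in Sham-CLP and 64.3, 97.2 and 64.3 in Burn-CLP, with 2 Burn-CLP arrays at the floor. It fell by 2.04 ± 0.23 on the log2 scale (limma, adjusted p = 0.00862) and lost its call only without Sham-Sham 2, at an adjusted p of 0.0533. Hand2, a factor of the embryonic heart, read 139, 273 and 334 in Sham-Sham, 88.6, 88.4 and 88.3 in Sham-CLP and 72.8, 75.5 and 74.8 in Burn-CLP (log2 -1.52 ± 0.25, limma adjusted p = 0.0406), while its other probe set changed by 0.32 and did not pass. Mxi1, an antagonist of MYC, and Nkx2-1, a factor of lung and thyroid, fell, with log2 changes of -1.24 ± 0.18 and -1.25 ± 0.20 and 4 CLP arrays at the floor each. The other Mxi1 probe set changed by 0.30 and did not pass. The Mxi1 and Nkx2-1 calls were each kept in 6 of 19 alternative settings and lost with the deposited scaling and when any array but Sham-Sham 3 or Burn-CLP 3 was left out, with adjusted p-values of up to 0.126 and 0.14. That of Hand2 was kept in 8 of 20 and lost when any array but Sham-Sham 1 or Sham-Sham 3 was left out, with values of up to 0.136. Sesn1, a stress gene regulated by FoxO factors and p53, had a change of 1.45 ± 0.27 with separate groups (limma, adjusted p = 0.0686).

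Slc34a2, a sodium phosphate cotransporter, kept its call in 18 of 20 alternative settings. It read 584, 380.0 and 304 in Sham-Sham, 143, 140.2 and 169.6 in Sham-CLP and 115, 114 and 97 in Burn-CLP. It fell 3.19-fold (log2 -1.67 ± 0.21, limma adjusted p = 0.0158) and the adjusted p rose to at most 0.0694 in the 2 settings that ended the call, which left out Sham-Sham 2 and Sham-CLP 1. Efna5, an ephrin ligand, Abhd16a, a phosphatidylserine lipase, and Lrpap1, the chaperone of LDL receptor relatives, fell, with log2 changes of -0.99 ± 0.16, -0.97 ± 0.14 and -1.04 ± 0.17, and were above the floor on all arrays. The other probe set of Lrpap1 changed by -0.15 and did not pass. These 3 calls were kept in 9, 10 and 7 of 20 alternative settings and lost on leaving out any array but Sham-Sham 3 or, for Efna5, Burn-CLP 3, with adjusted p-values of up to 0.132, 0.102 and 0.141.

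The remaining falls ended at or near the floor. Some low control probe sets also read higher in Sham-Sham in the deposited values, before normalization. DapX-5 read 146.7, 82.4 and 56 in Sham-Sham and 12.2 to 46.2 on the CLP arrays. Most controls had overlapping groups, and some, such as PheX-3, tended the other way. The part of a higher low-end signal in Sham-Sham in the falls near the floor was not tested. Tmprss2, a membrane serine protease, Utrn, the dystrophin relative utrophin, and Lrrc15, a leucine-rich repeat membrane protein, were at the floor on all 6 CLP arrays, at least 2.26-fold, 2.27-fold and 1.86-fold lower (limma, adjusted p = 0.0249, 0.0311 and 0.0406). These 3 genes passed the filter only through the 3 Sham-Sham arrays. Values set to the floor show no spread, so the p-values of these 3 cannot serve as support for a fall. Grk6, a receptor kinase, Atg2b, a lipid transfer protein of autophagy, RT1-CE5, an MHC class I molecule, Rnf213, a large ubiquitin ligase, Vsig10l, an immunoglobulin domain protein, and Galr3, a galanin receptor, fell, with log2 changes between -1.58 and -0.85 and 1 to 5 CLP arrays at the floor. Other probe sets of Grk6, Atg2b, RT1-CE5 and Rnf213 changed by -0.37, -0.40, -0.22 and -0.07 and did not pass, so these 4 falls hold for single probe sets. Of the 9 calls in this paragraph that of Atg2b was kept in 15 of 19 alternative settings and that of Grk6 in 10 of 19. The Atg2b call ended with the floor at the 10th or the 30th percentile and on leaving out Sham-CLP 1 or, separately, Sham-Sham 2. Over the settings its log2 change was as small as -0.48, with adjusted p-values of up to 0.133 (limma). The other 7 were kept in 5 to 9 settings, and Tmprss2 and Utrn were tested in only 16 of these and Lrrc15 in 15. All but Atg2b were lost, among others, on leaving out any of Burn-CLP 1 and 2 and Sham-CLP 1 and 3, and their adjusted p-values reached 0.229 over all settings.

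**Figure D3:**
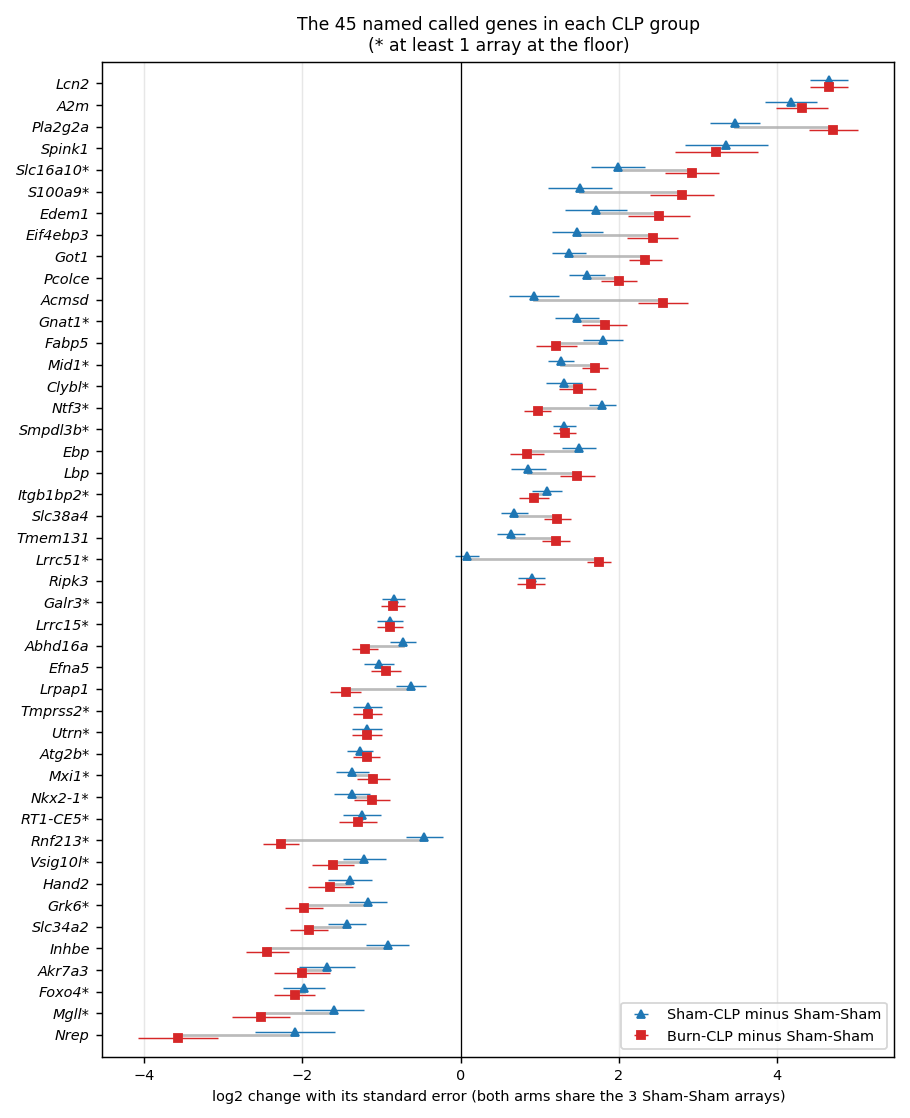
Log2 change against Sham-Sham in each CLP group, with its standard error, for the 45 named called genes; blue triangles are Sham-CLP and red squares Burn-CLP, and an asterisk marks genes with at least 1 array at the floor. Both arms share the 3 Sham-Sham arrays. The arms coincide for Lcn2 (4.66 and 4.65) and lie far apart for Acmsd (0.93 and 2.56), Rnf213 (-0.46 and -2.27) and Lrrc51 (0.08 and 1.74).

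The size of the change was set side by side for the 2 CLP groups. Both groups were set against the same 3 Sham-Sham arrays, so their values are given side by side. Over the 48 called probe sets the median size of the log2 change was 1.29 in Sham-CLP and 1.629 in Burn-CLP. The change was larger in Burn-CLP for 33, larger in Sham-CLP for 12 and the same for 3 that were at the floor on all 6 CLP arrays. In 42 of the 48 the smaller arm was at least 0.5 times the larger. The 48 were chosen by the mean of the 2 arms, which favours probe sets with similar arms. These counts were not taken over all probe sets tested, so they give no result about a shared response or about burn. Set directly against each other, Burn-CLP and Sham-CLP differed in 2 of 13535 probe sets (0.0148%), and 1 of these, Lrrc51, was among the 48. At an unadjusted p under 0.05 the arms differed in 22 of the 48 and in 1231 of all tested (9.09%). Tested alone against Sham-Sham, Sham-CLP had 8 calls (0.0591%) and Burn-CLP 101 (0.746%). Of the 48, 8 passed in both arms on their own, 33 in Burn-CLP only, 0 in Sham-CLP only and 7 in neither. Rises that were larger with CLP alone were those of Fabp5 (log2 1.80 and 1.21), Ebp (1.49 and 0.84) and Ntf3 (1.79 and 0.97), and rises that were larger with burn included Pla2g2a, Got1, Acmsd and Eif4ebp3. None of these 7 passed the test of the difference between the arms.

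Lrrc51, a leucine-rich repeat protein, was called in the pooled comparison although its level in Sham-CLP was near that in Sham-Sham. It was at the floor on all 3 Sham-Sham arrays and on 2 of the 3 Sham-CLP arrays, with 75.9 on Sham-CLP 2, and read 209, 214 and 223 in Burn-CLP. Its log2 change was 0.08 ± 0.15 in Sham-CLP and 1.74 ± 0.15 in Burn-CLP, and the arms differed (limma, adjusted p = 0.0124). Lrrc51 passed the filter through its Burn-CLP arrays, and arrays set to the floor show no spread, so this p-value cannot serve as support. It was the only called probe set whose CLP arrays overlapped Sham-Sham. Rnf213 came closest to this pattern among the named falls, with 270.4, 275 and 221 in Sham-CLP against 286 to 459 in Sham-Sham, and 64.3, 64.3 and 91.5 in Burn-CLP. The arm difference of Rnf213 did not pass (limma, adjusted p = 0.0613).

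The 3 immune signalling lists held 1 called gene in all, while 0.418% of all genes were called. Among 17 genes of lipopolysaccharide sensing, Lbp was the only call and the median log2 change was 0.029, with no settled direction, as it was -0.012 without Sham-CLP 1 and 0.199 under a common median. Among 19 genes of IL-6 and STAT3 signalling none was called, 16 had values above 0 and the median was 0.314, ranging from 0.194 without Sham-Sham 1 to 0.383 without Burn-CLP 3. Socs3, the feedback inhibitor of IL-6 signalling, had a log2 change of 0.54 ± 0.23 (limma, adjusted p = 0.25) and Cish, of the same family, one of 0.95 ± 0.32 with separate groups (limma, adjusted p = 0.18). The interferon and antigen processing list, with 26 tested, had a median of -0.282 and no call, and 20 of its values were below 0. For 3 of the 26 genes, against 4.14% of all genes, the CLP arrays lay wholly below Sham-Sham. Among them were Psme1, a proteasome activator, at -0.71 ± 0.20 (limma, adjusted p = 0.144), and the chemokine Cxcl10, at -0.49 ± 0.17 (limma, adjusted p = 0.194).

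Markers of other cells give the makeup of the samples beside these values. The 10 macrophage markers were above the floor on all arrays, none was called, and their summed signal lay between 10700 and 12420 on the Sham-Sham, 11960 and 14640 on the Sham-CLP and 13420 and 18940 on the Burn-CLP arrays. Lymphocyte markers, 19 of 25 tested and 11 of them at the floor on some array, summed to between 3374 and 4044 in Sham-Sham, 2979 and 3086 in Sham-CLP and 3085 and 3467 in Burn-CLP. Red cell markers summed to 12890 to 16070, 11610 to 12770 and 10030 to 12070 in the same order, and pancreas markers to 1530 to 1985, 1278 to 1449 and 1115 to 1526. The part of cell makeup in the changes described here, that of Spink1 included, was not tested.

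**Figure D4:**
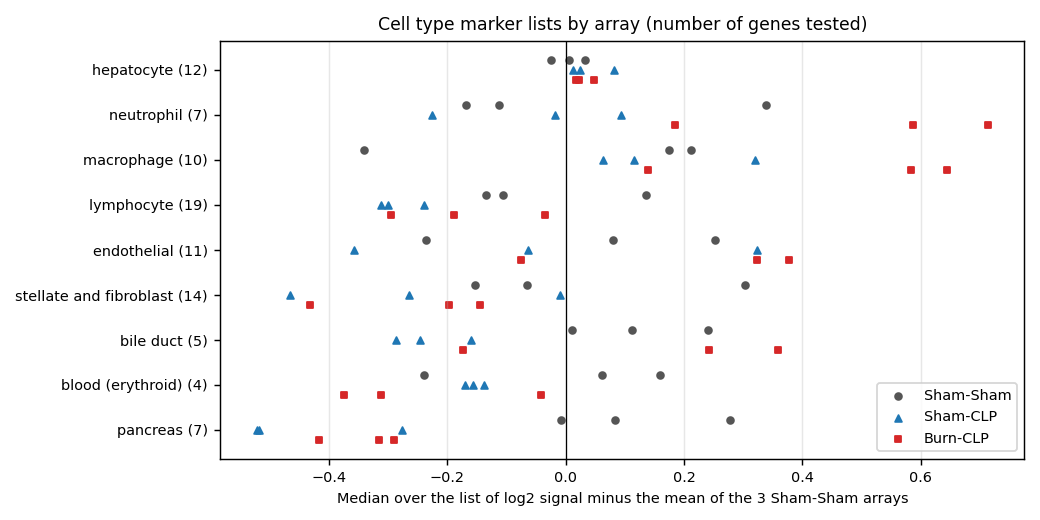
Median over each cell type marker list, per array, of the log2 signal minus the mean of the 3 Sham-Sham arrays, with the number of genes tested in brackets; grey circles are Sham-Sham, blue triangles Sham-CLP and red squares Burn-CLP arrays. Hepatocyte markers stay within -0.024 and 0.081 on all 9 arrays after quantile normalization, which fixes the signals at the highest ranks, while the neutrophil and macrophage lists are highest in Burn-CLP 2 and 3, at 0.713 and 0.587 and at 0.583 and 0.644.

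**Figure D5:**
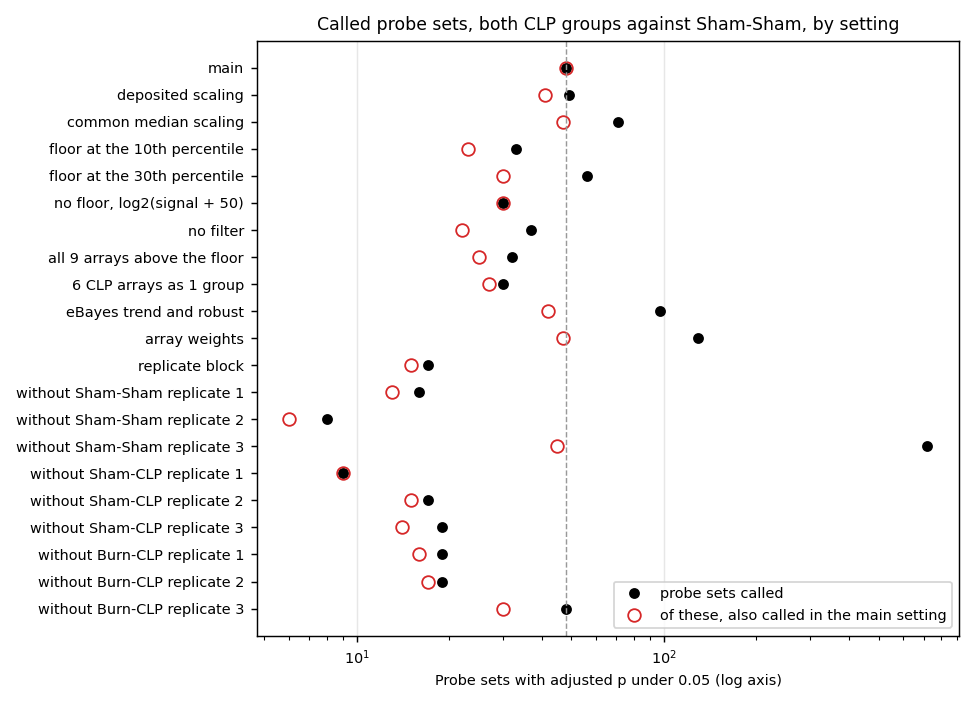
Number of probe sets called in the pooled comparison under each setting, on a log axis; filled circles are all calls and open circles those also called in the main setting, whose 48 calls are marked by the dashed line. Leaving out Sham-Sham 3 raised the number to 721 and leaving out Sham-Sham 2 lowered it to 8.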

How the data were processed

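The 9 samples, labelled as total RNA of whole rat liver, were hybridised to 9 one-colour oligonucleotide arrays. The authors deposited a linear intensity for each of 15923 probe sets. The software that made these from the scans is not named in the sources used here. With the top and bottom 2% removed, the array means were 500.14 to 500.17, so arrays had been scaled to a common level. Precision is limited by the number of arrays.

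Arrays were quantile normalized over all probe sets, signals under the 20th percentile were set to it, and log2 was taken. Probe sets with at least 3 of 9 arrays above the floor were tested, without controls. One limma 3.58.1 fit (R 4.3.3, lmFit and eBayes, 6 residual degrees of freedom) over the 3 groups gave the mean of both CLP groups minus Sham-Sham, each arm, and Burn-CLP minus Sham-CLP. Benjamini-Hochberg adjusted p under 0.05 was called. Where all arrays of a group were at the floor, a fold is a lower bound, taken between the floor and the other group's mean log2 signal.

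Gene symbols came from the supplied platform annotation, updated to GRCr8 RefSeq symbols: 12783 probe sets had 1 symbol, 312 several and 2771 none. Only those with 1 symbol are named. Gene lists (39, of which 9 are cell type markers) use the probe set with the highest mean per gene and are described by counts and medians without a test. Named are the 15 largest rises and falls among called genes with separate groups that moved the same way in both arms, every called member of a list up to 6, up to 4 members with the smallest p where fewer were called, and from each marker list the 2 brightest members. Called genes outside this rule are named after their values were seen. The comparison, its lists and its tests were chosen with earlier results of these data known.

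On simulated data with 11547 probe sets, 74% of planted changes of log2 1 and 99% of those of log2 2 were recovered in the pooled comparison, with 13 false calls among 186. The changes were planted at equal size in both CLP groups, with normal noise, and only in probe sets well above the floor. These rates therefore do not cover calls with arrays at the floor or with unequal arms. The labels number samples 1 to 3 in each group. Deviations from the group mean correlated at between -0.0261 and 0.0806 for equal numbers and between -0.0725 and 0.0366 for different ones. The medians were 0.045 for equal numbers and -0.016 for different ones. The main fit did not take the numbers as pairs, and with them as a replicate block there were 17 calls.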

Additional observations from a re-analysis of the deposited data

Results flagged for a closer look

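The test of the difference between Burn-CLP and Sham-CLP was passed by 2 genes, both at or near the floor outside Burn-CLP. Lrrc51 differed by 1.66 in log2 signal (Burn-CLP minus Sham-CLP, limma adjusted p = 0.0124), with all 3 Burn-CLP arrays between 209 and 223 and 5 of the other 6 arrays at the floor. Sult2b1, a sulfotransferase of cholesterol and other sterols, differed by 1.62 (limma, adjusted p = 0.036). It read 71.3, 64.3 and 64.3 in Sham-Sham, 64.3 on all 3 Sham-CLP arrays and 174, 178 and 247 in Burn-CLP. Its pooled change of 0.76 ± 0.15 did not pass (limma, adjusted p = 0.0884). Both genes passed the filter through their Burn-CLP arrays, and values set to the floor show no spread. Their p-values therefore cannot serve as support for a difference between the arms.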

How the results depend on the processing

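The named calls kept their direction in every alternative in which they were tested. Their number changed with the settings. It was 49 (26 higher) with the deposited scaling and 71 (41 higher, 30 lower) with a common median. A floor at the 10th percentile gave 33 (14 lower), one at the 30th percentile 56, no floor with log2(signal + 50) 30 (13 lower), no filter 37, and all 9 arrays above the floor 32 (10 lower). Fitting the 6 CLP arrays as 1 group gave 30 (14 higher), eBayes with trend and robust 97 (50 higher, 47 lower) and array weights 129 (78 higher, 51 lower). With the replicate number as a replicate block there were 17 (12 higher, 5 lower), 15 of them shared with the main 48, and 0 differences between the arms. Leaving out 1 array gave 8 calls (without Sham-Sham 2) to 721 (without Sham-Sham 3), 8 to 380 higher and 0 to 341 lower. The count of probe sets that differed between the arms, 2, was 1 with the deposited scaling, 3 with a common median, 4 with the lower floor or no filter, 0 with the higher floor, without a floor or with all arrays above it, 10 with trend and robust, 47 with array weights, and 0 to 36 without 1 array. Why the counts moved was not tested. Signals near the floor limit 23 of the 48 calls.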

Other observations

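Regulators outside the groups described so far moved with the CLP arrays without passing the test. Klf4, an immediate early transcription factor, read 64.3, 135 and 137 in Sham-Sham, with Sham-Sham 1 at the floor, 235, 207 and 209.7 in Sham-CLP and 232, 255 and 268 in Burn-CLP, a log2 change of 1.14 ± 0.24 (limma, adjusted p = 0.098). The groups were separate for this gene. Of 33 immediate early and stress regulators tested, 28 had values above 0 and the median was 0.251, and was 0.334 under a common median. The CLP arrays lay wholly above Sham-Sham for 1 of them (3.03%, against 3.79% of all genes) and none was called. Per1, a clock gene that glucocorticoids also induce, changed by 1.48 ± 0.46 (limma, adjusted p = 0.163) with overlapping groups, and the median of 15 clock genes, 0.271, was 0.013 without Sham-Sham 1 and 0.454 without Sham-Sham 3.

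Sugar metabolism had no called gene and members on both sides. Slc2a1, a glucose transporter, read 187, 210.3 and 214 in Sham-Sham, 311, 363 and 316 in Sham-CLP and 342, 541 and 359 in Burn-CLP (log2 0.84 ± 0.18, limma adjusted p = 0.0971). Pfkfb1, which sets the liver's level of fructose 2,6-bisphosphate, changed by 1.01 ± 0.21 (limma, adjusted p = 0.0938), while Ldha, lactate dehydrogenase A, changed by -0.74 ± 0.18 (limma, adjusted p = 0.119) and Ugp2, which supplies UDP-glucose for glycogen, by -0.64 ± 0.17 (limma, adjusted p = 0.134). In each of these 4 genes the 6 CLP arrays did not overlap the 3 Sham-Sham arrays. Aldoa, Pgm1 and Slc2a2 of the same lists, at 0.56, -0.54 and 0.45, had overlapping groups. The CLP arrays lay wholly above Sham-Sham for 1 of 19 glycolysis genes and wholly below for 2. For 14 genes of gluconeogenesis and glycogen these counts were 2 and 1, against 3.79% and 4.14% of all genes. For the basic cell machinery no gene was called, and the medians rested on the scaling. They were 0.042 for 40 cytosolic ribosomal proteins, 0.12 for 58 genes of the respiratory chain and 0.1 for 29 proteasome genes, and 0.252, 0.315 and 0.261 under a common median, with -0.001 for ribosomal proteins without Sham-Sham 2. For 4 of the 58 respiratory chain genes the CLP arrays were wholly above Sham-Sham, as for 12 with the deposited scaling, 7 with a common median, 15 without Sham-Sham 1 and 8 without Sham-Sham 3. Over all genes the count was 354 of 9339, 310 of 9331, 495 of 9342, 575 of 9252 and 977 of 9281 in the same order.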
